A study of Mus musculus with 6 samples.

Results

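Genes of antigen presentation by the major histocompatibility complex (MHC) were followed in mouse sciatic nerve. The members were 10 genes chosen by name, 5 for class I (H2-K1, H2-D1, B2m, Tap1 and Tap2) and 5 for class II (Cd74, H2-Aa, H2-Ab1, H2-Eb1 and Ciita). All 10 were found among the 24015 gene symbols counted, and 9 of them were among the 11371 genes with enough counts to be tested.

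Libraries were made from sciatic nerves at postnatal day 14 to ask what the loss of Rnf40, an E3 ubiquitin ligase for histone H2B, does to gene expression in myelinating nerve. Control mice (3 libraries) were Rnf40 fl/fl and carried no Cre, so both genotypes have floxed Rnf40 alleles. Rnf40ΔSC mice (3 libraries) were Rnf40 fl/fl with the Dhh::Cre transgene, which is active in the Schwann cell lineage and leaves the other cells of the nerve undeleted. Each library came from a pool of 3 nerves, so the spread between libraries is the spread between pools. The labels give a mixed 129SvJ and C57Bl/6J strain for both genotypes, while the methods give C3H and C57Bl/6J. The total counts were 1317167, 1992622 and 2468765 in control replicates 1 to 3, and 2184268, 1459387 and 2186710 in Rnf40ΔSC replicates 1 to 3. At this depth 1 read was worth 0.414 to 0.823 CPM (read counts relative to library size, scaled by the TMM method), and a gene with no reads could still be present at up to 3 counts, or 1.24 to 2.47 CPM. These limits cover counting error only.

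MHC class I molecules are found on nearly all nucleated cells and show peptides from the cytosol to CD8 T cells. Each consists of a heavy chain such as H2-K or H2-D and the light chain beta-2 microglobulin, loaded with peptide that the Tap1 and Tap2 transporter carries into the endoplasmic reticulum. Class II molecules are made mainly by macrophages, dendritic cells and B cells and show peptides from the endosome to CD4 T cells. Their alpha and beta chains assemble on the invariant chain Cd74, which cathepsins degrade before H2-DM exchanges the remaining fragment for peptide, and the coactivator Ciita drives their transcription. In peripheral nerve, resident macrophages are the best known class II cells.

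Of the 10 members, 7 lie on chromosome 17 between 34132962 and 35404444 (mm9), a stretch of 1.27 Mb, while B2m is on chromosome 2 and Ciita on chromosome 16. H2-Aa and H2-Ab1 are on opposite strands and their annotated ends overlap by 88 bases, so that reads from the overlap are uncertain. RefSeq promoter sequence (GRCm38.p6) was matched for H2-Aa, H2-Eb1, H2-K1, H2-D1, B2m and Tap1 among the members. The 180 bases before the start of a pair of class II genes and a pair of class I genes are shown because chain genes of both classes share promoter elements while their transcript levels are compared here. They are H2-Aa at chr17:34287824-34288003 (minus strand), H2-Eb1 at chr17:34305687-34305866 (plus strand), H2-D1 at chr17:35262914-35263093 (plus strand) and B2m at chr2:122147507-122147686 (plus strand). Capitals mark matches on either strand to the Y box (CTGATTGG), an X2 box (TGACGTCA), an NF-kB site (GGGATTCCC) or an interferon regulatory factor core (AANNGAAA).
H2-Aa: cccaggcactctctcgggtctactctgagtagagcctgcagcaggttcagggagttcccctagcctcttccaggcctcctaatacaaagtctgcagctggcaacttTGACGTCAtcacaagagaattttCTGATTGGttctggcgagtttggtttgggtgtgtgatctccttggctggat
H2-Eb1: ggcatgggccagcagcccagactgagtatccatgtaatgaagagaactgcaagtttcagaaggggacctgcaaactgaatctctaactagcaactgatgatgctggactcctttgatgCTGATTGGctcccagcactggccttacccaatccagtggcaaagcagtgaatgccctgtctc
H2-D1: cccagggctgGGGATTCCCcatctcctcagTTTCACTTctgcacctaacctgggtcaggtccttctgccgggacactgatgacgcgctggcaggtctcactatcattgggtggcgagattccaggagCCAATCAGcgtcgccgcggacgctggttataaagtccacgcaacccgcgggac
B2m: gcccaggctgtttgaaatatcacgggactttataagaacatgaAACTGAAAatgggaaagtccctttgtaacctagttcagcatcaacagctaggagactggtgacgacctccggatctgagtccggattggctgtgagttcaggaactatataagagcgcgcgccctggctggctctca

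The Y box was found at -51 to -44 from the start of H2-Aa, at -62 to -55 of H2-Eb1 and at -53 to -46 of H2-D1, where it lies on the opposite strand. Of 32851 promoter windows of 250 bases, 3.83% held the Y box, 1.55% the X2 box, 0.301% the NF-kB site and 21.3% the interferon regulatory factor core. H2-Aa also held the X2 box and, at -213 to -206 and so outside the printed part, the interferon regulatory factor core, and H2-D1 held the NF-kB site and the interferon regulatory factor core. Among these 4 motifs B2m held an exact match to the interferon regulatory factor core alone. Only the exact letters were searched, and the printed part of B2m also holds cggattgg, a near match to the Y box. The lack of an exact match thus does not show that a related site is absent. A match is a description of letters and not of binding.

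Rnf40, the deleted gene, had 82, 116 and 165 counts in control replicates 1 to 3 against 109, 75 and 118 in Rnf40ΔSC replicates 1 to 3. In CPM, every Rnf40ΔSC library (46.8 to 48.8) was below every control library (65.5 to 73.7). Rnf40 fell by 0.54 on the log2 scale (SE 0.14, edgeR adjusted p = 0.00242), although with total counts as the scaling the change of -0.27 missed the threshold (edgeR adjusted p = 0.12, with a range over all alternatives from 0.00235 to 0.12). The count covers the whole gene and all cells of the nerve, so it does not measure the deleted exons, and it went in the direction of the labels in all 3 libraries.

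The Rnf40ΔSC libraries differed among themselves in muscle transcripts. The summed level of 5 skeletal muscle genes was 2057, 1584 and 1184 CPM in control replicates 1 to 3, but 46.4, 141 and 1683 CPM in Rnf40ΔSC replicates 1 to 3. Rnf40ΔSC replicates 1 and 2 thus stood apart from the other 4 libraries, with Acta1 the most abundant of the 5 genes, none of which passed with all 6 libraries, whether by edgeR or DESeq2, or had an unadjusted edgeR p under 0.05. Their part in the results on MHC genes was not tested, and Cd74, B2m, H2-K1, H2-DMb1 and Stat2 are given below also without Rnf40ΔSC replicate 3 and with it as the lone Rnf40ΔSC library, a setting chosen after the data were seen. Where either setting changed the call of a gene named here, this is said. Without Rnf40ΔSC replicate 3 Acta1 fell by 4.10 on the log2 scale (edgeR adjusted p = 0.0233), over a range of all alternatives from 0.0233 to 0.795.

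Across all genes tested, 1841 were lower in Rnf40ΔSC nerve (16.2%) and 1756 were higher (15.4%) at an adjusted p of at most 0.05. Of the 9 members tested, 1 was lower, Cd74, and 1 was higher, B2m. These shares are not above the background of the whole table. The members with no overlap between the groups were the same pair, Cd74 below and B2m above, where 21.6% of all genes tested had every Rnf40ΔSC library below every control library and 22% had the reverse. With the stricter limits of the study (a log2 change of at least 0.8 in size and a base mean of at least 20), which 5.05% of genes passed as lower and 3.73% as higher, Cd74 passed and B2m did not. The median log2 change of the 9 members was -0.19, beside -0.003 for all genes tested. With total counts in place of TMM the median of the members turned to 0.08 and that of all genes moved to 0.27, and the share of calls that were higher went from 48.8% to 81.1%.

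**Figure D1:**
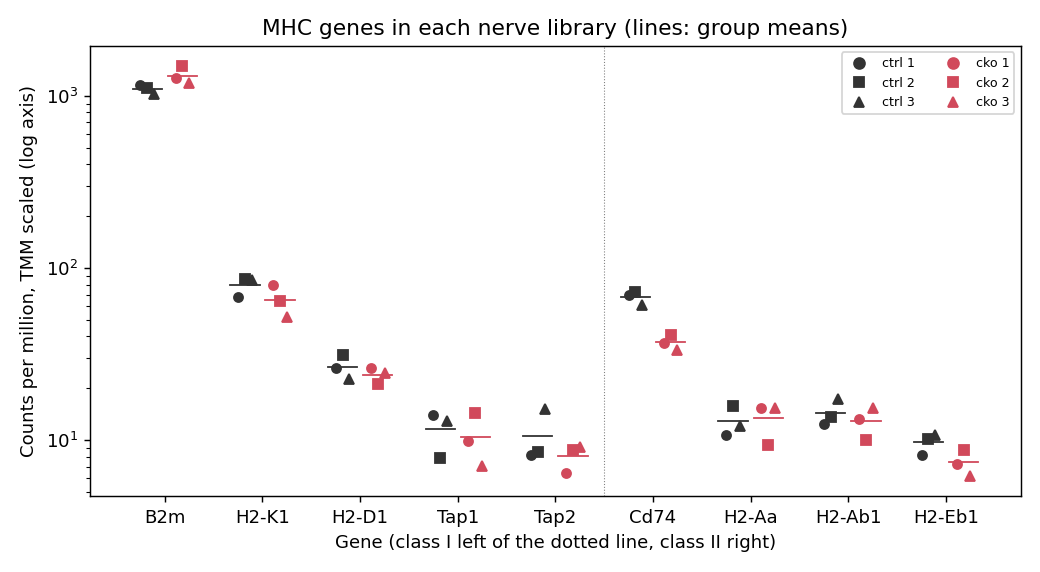
Level of 9 MHC genes in each library, in TMM-scaled CPM on a log axis, with class I genes on the left and class II genes on the right. Symbols are libraries and lines are group means (n = 3 pools). The groups separate for Cd74, where all 3 Rnf40ΔSC libraries are lower, and for B2m, where all 3 are higher, and overlap for the others.

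Among class II genes, Cd74 was the most abundant and the only member that was lower. Cd74 counts were 85, 129 and 137 in control replicates 1 to 3 and 85, 65 and 81 in Rnf40ΔSC replicates 1 to 3, or 70.0, 72.9 and 61.1 CPM against 36.5, 40.6 and 33.5 CPM. The control libraries were all above the Rnf40ΔSC libraries, and the gap between the groups was larger than the range within either. Cd74 fell by 0.89 on the log2 scale (SE 0.15, edgeR adjusted p = 1.36e-05), to 0.541 times the control level. It fell by 0.81 without Rnf40ΔSC replicate 3 and by 1.01 with that library alone against the controls. In whole nerve, fewer cells that make a transcript and less of it per cell cannot be told apart.

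No change was detectable at this depth in the chains that Cd74 chaperones. H2-Aa, the alpha chain of the I-A molecule, had 13, 28 and 27 counts in control against 36, 15 and 37 in Rnf40ΔSC replicates 1 to 3. H2-Ab1, its beta chain, had 15, 24 and 39 counts in control against 31, 16 and 37. H2-Eb1, the beta chain of I-E, had 10, 18 and 24 counts against 17, 14 and 15. For all 3 genes the groups overlapped in CPM. Their log2 changes were 0.08 (SE 0.28) for H2-Aa, -0.17 (SE 0.27) for H2-Ab1 and -0.43 (SE 0.33) for H2-Eb1, with edgeR adjusted p of 0.863, 0.671 and 0.348. The 95% intervals of the change were -0.47 to 0.62 for H2-Aa, -0.69 to 0.35 for H2-Ab1 and -1.09 to 0.22 for H2-Eb1. A fall by 0.89, the value of Cd74, lies outside the first pair and inside that of H2-Eb1. The sign turned for H2-Aa without control replicate 1, Rnf40ΔSC replicate 1 or Rnf40ΔSC replicate 3 (-0.02, -0.02 and -0.01). It turned for H2-Ab1 without control replicate 3 (0.0058), with Rnf40ΔSC replicate 3 alone (0.05) and with total counts (0.10).

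Summed over these 3 chains, the level was 37.0 ± 4.96 CPM (SD, n = 3) in control and 33.7 ± 4.82 CPM (SD, n = 3) in Rnf40ΔSC nerve. The count ratio of the 3 chains to Cd74 was 0.447, 0.543 and 0.657 in control and 0.988, 0.692 and 1.10 in Rnf40ΔSC replicates 1 to 3. All 3 Rnf40ΔSC libraries had the higher ratio. Per kilobase of exon, Cd74 stood 7.45 times above H2-Aa in control and 3.88 times above it in Rnf40ΔSC nerve. The shift was smaller for the other chains, from 5.49 to 3.34 times above H2-Ab1 and from 5.91 to 4.19 times above H2-Eb1. H2-Ea, listed as a pseudogene because it is not transcribed in the H2-b haplotype of C57BL/6 mice, had 3, 1 and 1 counts in control and 1, 2 and 0 in Rnf40ΔSC libraries. These counts were at or below the floor in all 6 libraries.

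Ciita had 1 count in control replicate 3, 1 count in Rnf40ΔSC replicate 3 and 0 in the other 4 libraries. It was not tested, and a difference was not detectable at this depth.

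Among class I genes, B2m was by far the most abundant. B2m counts were 1402, 1966 and 2284 in control replicates 1 to 3 and 2941, 2366 and 2851 in Rnf40ΔSC replicates 1 to 3, or 1154, 1111 and 1019 CPM against 1263, 1479 and 1180 CPM. The groups did not overlap, but the gap between the highest control and the lowest Rnf40ΔSC library was small beside the range of the latter. B2m rose by 0.26 on the log2 scale (SE 0.09, edgeR adjusted p = 0.0199), or 1.19-fold. With total counts the log2 change was 0.52 (edgeR adjusted p = 6.83e-06). The call rested on single libraries. Without Rnf40ΔSC replicate 2, control replicate 3 or control replicate 2 the log2 change was 0.16, 0.20 and 0.26, with edgeR adjusted p of 0.175, 0.175 and 0.0523. With Rnf40ΔSC replicate 3 alone against the controls it was 0.11 (edgeR adjusted p = 0.495), and without that library it was 0.34 (edgeR adjusted p = 0.000899). Over all alternatives of B2m the adjusted p ran from 6.83e-06 to 0.495.

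The heavy chains did not pass the test. H2-K1 had 82, 152 and 191 counts in control against 186, 103 and 126 in Rnf40ΔSC replicates 1 to 3, or 67.5, 85.9 and 85.2 CPM against 79.9, 64.4 and 52.1 CPM. Its log2 change was -0.30 (SE 0.14, edgeR adjusted p = 0.111), and the groups overlapped through Rnf40ΔSC replicate 1 and control replicate 1. Without Rnf40ΔSC replicate 1 it was -0.47 (edgeR adjusted p = 0.027), and with Rnf40ΔSC replicate 3 alone it was -0.63 (edgeR adjusted p = 0.00799). Without Rnf40ΔSC replicate 3 it was -0.14 (edgeR adjusted p = 0.487) and with total counts it was -0.03, while its adjusted p over all alternatives ran from 0.00799 to 0.889. H2-D1 had 32, 55 and 51 counts in control and 61, 34 and 59 in Rnf40ΔSC libraries, with overlapping groups and a log2 change of -0.14 (SE 0.20, edgeR adjusted p = 0.646). The sign of the H2-D1 value turned with total counts (0.13), and the value was near 0 without control replicate 2 (-0.01).

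The values of H2-K1 and H2-D1 are uncertain because the genes are close paralogs. Their coding sequences were identical at 88.3% of aligned positions. Of the 50-base windows of the longest transcript, 8.87% for H2-K1 and 14.3% for H2-D1 also occurred in transcripts of other genes, and reads from such windows have no unique place. No such window was found for B2m, Cd74, H2-Aa, H2-Ab1 or H2-Eb1. The reference carries the C57BL/6 haplotype, and reads from another haplotype of the mixed background may have been lost, which was not tested.

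The peptide transporter genes were low in both groups. Tap1 had 17, 14 and 29 counts in control and 23, 23 and 17 in Rnf40ΔSC libraries, and Tap2 had 10, 15 and 34 against 15, 14 and 22. The groups overlapped for both, with log2 changes of -0.19 (SE 0.32) and -0.45 (SE 0.33) and edgeR adjusted p of 0.700 and 0.318. The sign of the Tap1 value turned with total counts (0.08) and without Rnf40ΔSC replicate 3 (0.05), and with 1 library left out it ran from -0.44 to 0.05. The Tap2 value rested on control replicate 3, without which it was -0.06 (edgeR adjusted p = 0.94, over a range from 0.235 to 0.94).

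Levels per kilobase of exon ordered the members in control nerve as B2m (1270 CPM per kb), Cd74 (48.2), H2-K1 (30.5), H2-D1 (10.3), H2-Ab1 (8.78), H2-Eb1 (8.16), H2-Aa (6.47), Tap2 (2.81) and Tap1 (2.12). In Rnf40ΔSC nerve Cd74 (26.2 CPM per kb) was level with H2-K1 (25.1). B2m ranked 11th of 10699 tested genes with one annotated length in control and 6th in Rnf40ΔSC nerve, while Cd74 ranked 872nd and 1780th. The 3 class II chains and H2-D1 lay within a narrow band in both groups. B2m exceeded H2-K1 by 41.7 times in control and by 60.6 times in Rnf40ΔSC nerve on this scale.

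Class I was set against class II by a ratio taken within each library, which needs no scaling between libraries. B2m counts were 16.5, 15.2 and 16.7 times those of Cd74 in control replicates 1 to 3 and 34.6, 36.4 and 35.2 times in Rnf40ΔSC replicates 1 to 3. The libraries of a genotype lay close together and the genotypes lay far apart. The log2 ratio rose from 4.01 ± 0.07 to 5.15 ± 0.04 (SD, n = 3), a difference of 1.13 with p = 0.1 in a two-sided exact permutation test, the smallest p that 3 against 3 libraries allow. Since B2m and Cd74 had each separated by group in opposite directions, their ratio had to separate too. The p of this ratio was thus fixed by those results, and no conclusion is drawn from it. Other pairs gave other values. The log2 ratio of H2-K1 to H2-Aa went the other way by -0.34, and that of H2-D1 to H2-Ab1 differed by 0.02, with overlapping groups for both. The ratio of summed heavy chains to summed class II alpha and beta chains was 3.00, 2.96 and 2.69 in control and 2.94, 3.04 and 2.08 in Rnf40ΔSC libraries, also overlapping. The separation of class I from class II was thus seen with B2m and Cd74 in the ratio, and was not seen in the peptide-binding chains taken alone.

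**Figure D2:**
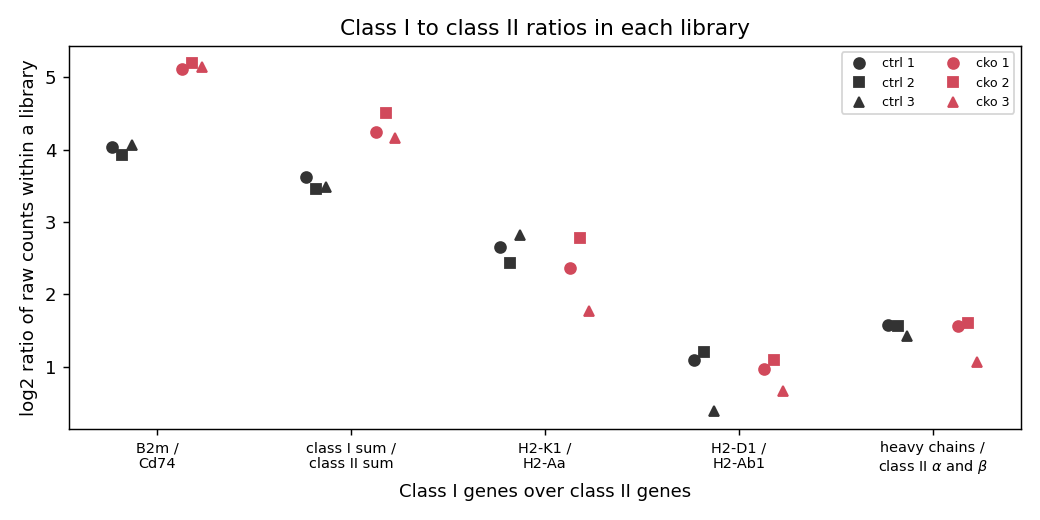
Log2 ratio of class I to class II raw counts within each library, for 5 choices of genes. Symbols are libraries (n = 3 pools per genotype). The B2m to Cd74 ratio is near 4.01 in control and near 5.15 in Rnf40ΔSC libraries, while the 3 ratios on the right, without B2m and Cd74, overlap.

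Further genes of both pathways were described from lists of 80 genes other than the members, of which 50 were tested, 3 were higher and 8 were lower, beside 15.4% higher and 16.2% lower over all genes tested. The median log2 change of the 50 was -0.09, or 0.17 with total counts, beside -0.003 and 0.27 for all genes tested. Among genes that supply class I peptides, the members Tap1 and Tap2 included, 1 of 10 tested passed, and it was higher. The 2 constitutive proteasome subunits tested, Psmb6 and Psmb7, did not pass, although Psmb6 did with total counts (edgeR adjusted p = 0.00714, over a range from 0.00714 to 0.445). Psme3, a proteasome activator subunit of the nucleus, rose by 0.41 (SE 0.11, edgeR adjusted p = 0.00295). The interferon-induced proteasome subunits Psmb8 and Psmb9 had at most 11 and 8 counts in any library and were not tested. Among class Ib and class I-like genes, 2 of 6 tested were lower and 7 of the 23 listed were at 0 in every library. Fcgrt, the heavy chain of the neonatal Fc receptor and a partner of B2m, was at 124, 136 and 146 CPM in control and 90.2, 93.1 and 96.8 CPM in Rnf40ΔSC libraries. The groups were well apart, and Fcgrt fell by 0.55 (SE 0.11, edgeR adjusted p = 0.000126). H2-T23, which encodes the Qa-1 molecule read by natural killer cells, had 12, 13 and 17 counts against 10, 4 and 6 and fell by 1.35 (SE 0.42, edgeR adjusted p = 0.012). It had enough counts to be tested through the control libraries, where it was high. It had no value with at least 10 counts in every library. The call is included in the counts of lower genes above, but no conclusion is drawn from it. H2-T23 shares 14.8% of its 50-base windows with other genes, and its call was lost under 5 of 13 alternatives: DESeq2 with and without a fold-change prior (adjusted p of 0.096 and 0.1), without control replicate 1, without Rnf40ΔSC replicate 3 and with that library alone. Its adjusted p ran from 0.0123 to 0.1.

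Among class II peptide loading genes, 3 of 9 tested were lower and none was higher, beside 16.2% and 15.4% of all genes. H2-DMb1, the beta chain of the peptide exchanger H2-DM, had 28, 61 and 72 counts in control replicates 1 to 3 and 17, 10 and 24 in Rnf40ΔSC replicates 1 to 3, or 23.1, 34.5 and 32.1 CPM against 7.30, 6.25 and 9.93 CPM. Every Rnf40ΔSC library was far below every control library. H2-DMb1 fell by 1.92 on the log2 scale (SE 0.25, edgeR adjusted p = 1.32e-07), to 0.264 times the control level. It fell by 2.13 without Rnf40ΔSC replicate 3 and by 1.61 with that library alone. The value is uncertain in that 27.1% of its 50-base windows also occur in its neighbour H2-DMb2, which had 0 to 3 counts in every library. H2-DMa, the alpha chain, had 49, 147 and 113 counts against 81, 28 and 78, with no overlap in CPM, and its log2 change of -1.02 (SE 0.33, edgeR adjusted p = 0.0567) missed the threshold. It passed under 7 of 14 alternatives, DESeq2 (adjusted p = 0.00304) among them, with an adjusted p from 1.19e-07 to 0.284. With 1 library left out it passed without control replicate 1 or 2 or Rnf40ΔSC replicate 2 (edgeR adjusted p of 0.00809, 0.0293 and 0.0285). The endosomal proteases Ctsl and Ctsb had small log2 changes of -0.26 and -0.22 that passed (edgeR adjusted p of 0.033 and 0.0409), and both signs turned with total counts (0.01 and 0.05). Ctsb passed under only 4 of 14 alternatives and Ctsl under 7. With 1 library left out Ctsb kept its call only without Rnf40ΔSC replicate 3, with an edgeR adjusted p of 0.0594, 0.0894 and 0.134 without control replicates 1 to 3 and of 0.108 and 0.127 without Rnf40ΔSC replicates 1 and 2. Ctsl lost its call without control replicate 2 or 3 or Rnf40ΔSC replicate 2 (edgeR adjusted p of 0.136, 0.137 and 0.158). Both calls were lost with Rnf40ΔSC replicate 3 alone, that of Ctsb also with no filter, with at least 10 counts in every library and with the replicate block, and that of Ctsl also with DESeq2. Over all alternatives the adjusted p ran from 0.0258 to 0.693 for Ctsb and from 0.0229 to 0.961 for Ctsl. The ratio of H2-DMb1 to Cd74 counts was 0.329, 0.473 and 0.526 in control and 0.200, 0.154 and 0.296 in Rnf40ΔSC libraries, so that H2-DMb1 was lower also beside Cd74 in all 3 libraries.

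Among the factors that bind or activate MHC promoters, 2 of 7 tested were higher and none was lower, beside 15.4% and 16.2% of all genes. Rfxank, a subunit of the RFX complex at the X box, was at 29.6, 35.6 and 25.9 CPM in control and 57.5, 49.4 and 58.8 CPM in Rnf40ΔSC libraries. Rfxank rose by 0.88 (SE 0.17, edgeR adjusted p = 7.31e-05). Nfya, the subunit of NF-Y that contacts the Y box printed in capitals above, was at 79.0, 75.7 and 88.8 CPM in control and 119, 125 and 129 CPM in Rnf40ΔSC libraries, and rose by 0.61 (SE 0.11, edgeR adjusted p = 5.46e-05). The groups did not overlap for either gene. Their partners Rfx5, Rfxap, Nfyb and Nfyc did not pass, except for Rfxap with total counts (edgeR adjusted p = 0.0132, over a range from 0.0132 to 0.51), and Nlrc5, the class I counterpart of Ciita, had 1 to 6 counts in every library. Among interferon and NF-kB regulators 3 of 14 tested were lower and none was higher. Stat2, which acts in type I interferon signalling, fell by 1.00 (SE 0.20, edgeR adjusted p = 0.000112), by 1.15 without Rnf40ΔSC replicate 3 and by 0.77 with that library alone. The interferon gamma receptor chain Ifngr2 fell by 0.44 and the NF-kB subunit Rela fell by 0.45, and neither passed with total counts or DESeq2, nor did Rela with Rnf40ΔSC replicate 3 alone, without control replicate 1 (edgeR adjusted p = 0.0578) or without Rnf40ΔSC replicate 1 (edgeR adjusted p = 0.0956), over a range from 0.00482 to 0.304. Of 4 co-stimulatory genes tested 0 passed with edgeR, 1 had an unadjusted p under 0.05, and 0 passed with DESeq2.

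**Figure D3:**
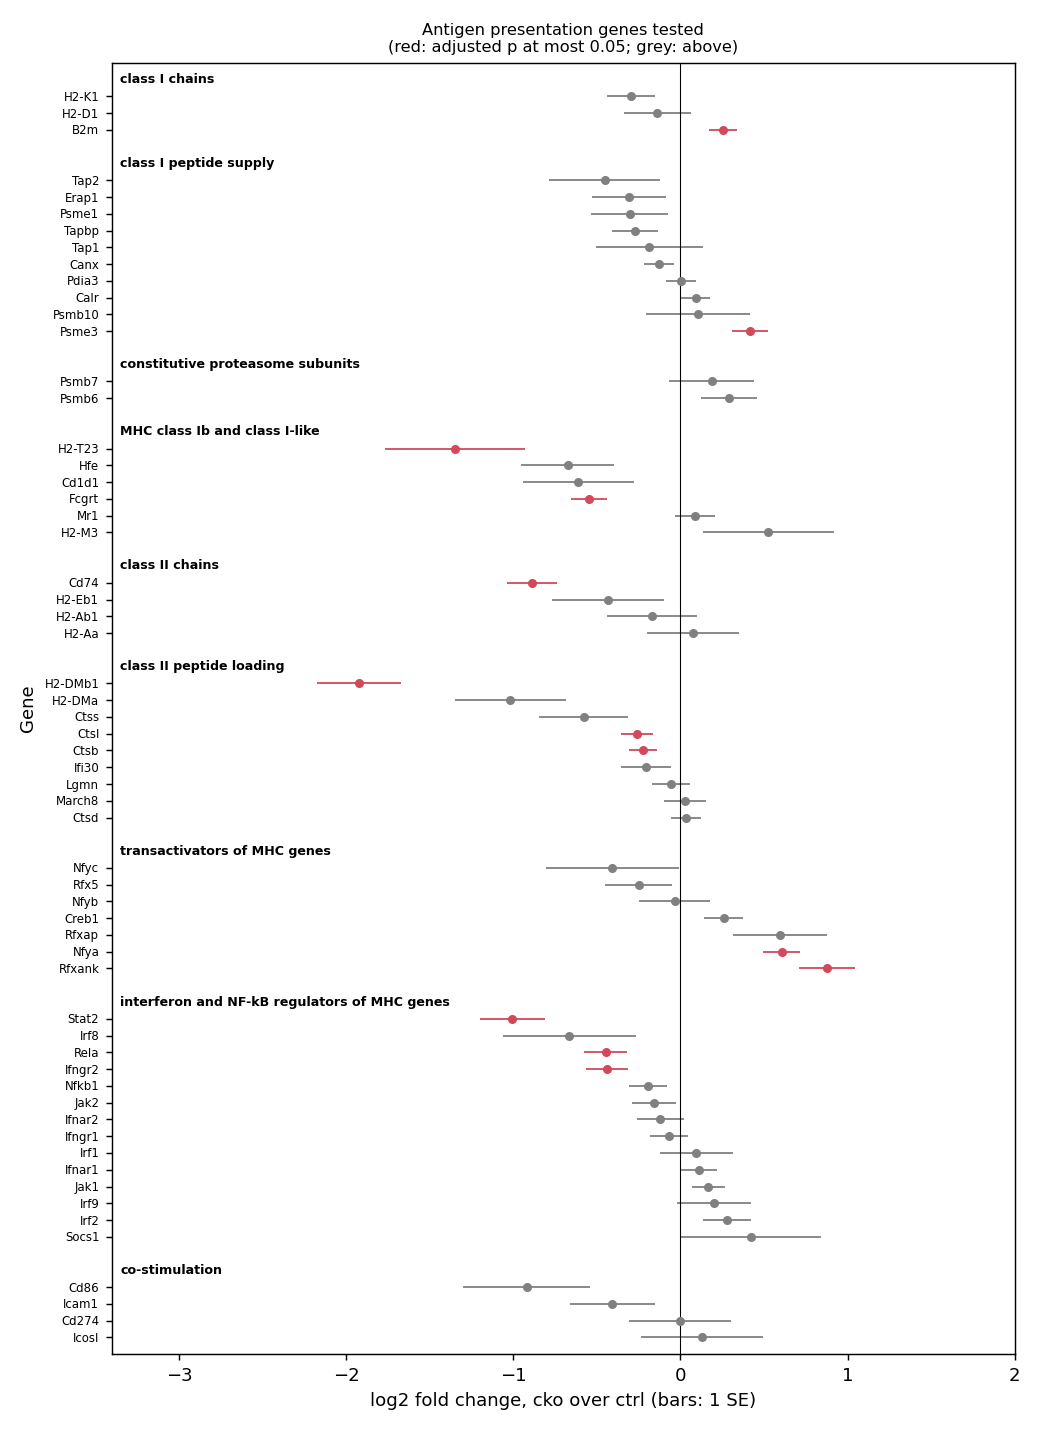
Log2 fold change of Rnf40ΔSC over control nerve for each antigen presentation gene tested, by list, with bars of 1 SE from the edgeR fit (n = 3 pools per genotype). Red points passed at an adjusted p of at most 0.05 and grey points did not. H2-DMb1 at -1.92 lies farthest from 0, and the transactivators Rfxank and Nfya lie to the right.

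Markers of the cells in the nerve were read beside the class II genes. Of 17 macrophage genes 14 were tested, 7 were lower and none was higher, beside 16.2% and 15.4% of all genes, with a median log2 change of -0.42 (-0.15 with total counts). Csf1r, the most abundant of them and the receptor that keeps macrophages alive, was at 110, 79.1 and 107 CPM in control and 60.1, 58.1 and 71.2 CPM in Rnf40ΔSC libraries, and fell by 0.63 (SE 0.13, edgeR adjusted p = 0.000294). The other 6 were Cd68, Mrc1, C1qa, C1qb, C1qc and Cd163, with log2 changes from -0.81 for Cd68 to -0.39 for C1qc. Of the 7 calls, 5 were lost with total counts, those of Mrc1, C1qa, C1qb, C1qc and Cd163, and 4 were lost with DESeq2, those of Cd68, C1qb, C1qc and Cd163. Csf1r kept its call under both. Those of Cd68, C1qb and Cd163 were lost with Rnf40ΔSC replicate 3 alone. With 1 library left out, C1qc kept its call only without Rnf40ΔSC replicate 2, with an edgeR adjusted p of 0.115, 0.0544 and 0.141 without control replicates 1 to 3 and of 0.0696 and 0.217 without Rnf40ΔSC replicates 1 and 3. C1qb was lost without control replicate 2 (edgeR adjusted p = 0.0945) or Rnf40ΔSC replicate 1 (edgeR adjusted p = 0.105), Cd163 without control replicate 2 (edgeR adjusted p = 0.0762) or Rnf40ΔSC replicate 2 (edgeR adjusted p = 0.0613), and Cd68 without control replicate 3 (edgeR adjusted p = 0.117). Of 14 alternatives C1qc passed under 5, C1qb and Cd163 under 8 and Cd68 under 10, with an adjusted p of at most 0.546, 0.356, 0.186 and 0.117 and at least 0.0109, 0.00859, 0.00692 and 0.00206. None of the 17 genes was at 0 throughout, and Fcgr1, Cd14 and Aif1 were too low to test. The summed level of the 17 genes was 653, 593 and 623 CPM in control and 476, 458 and 471 CPM in Rnf40ΔSC libraries, lower in all 3. The count ratio of Cd74 to this sum was 0.107, 0.123 and 0.0981 in control and 0.0767, 0.0887 and 0.0711 in Rnf40ΔSC libraries, and that of the 3 class II chains to it overlapped between the groups. That of H2-DMb1 to it was 0.0353, 0.0582 and 0.0516 in control and 0.0153, 0.0136 and 0.0211 in Rnf40ΔSC libraries, 0.347 times as high with no overlap. Cd74 and H2-DMb1 were thus lower also relative to this sum in all 3 libraries. Transcript sums do not count cells, and the CPM sums were taken with TMM scaling only and not with total counts.

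Dendritic cell, B cell and lymphocyte markers were low, with Zbtb46 and Cd4 alone tested. Of 7 dendritic cell genes only Zbtb46 was tested, at 3 to 21 counts, with no call, and the summed level was 12.4, 5.65 and 8.93 CPM in control and 10.7, 10 and 9.52 CPM in Rnf40ΔSC libraries. The 4 B cell genes had at most 3 counts in any library, and Cd79a and Pax5 were at 0 in all 6. Summed, they stood at 0, 0.565 and 0 CPM in control and 0, 0 and 1.24 CPM in Rnf40ΔSC libraries, with Cd79b the most abundant. Of 7 T and natural killer cell genes Cd8a was at 0 in every library, and Cd3d, Cd3e and Cd3g had 4 counts or fewer in each. Cd4, the coreceptor for class II, had 0, 3 and 6 counts in control and 14, 16 and 22 in Rnf40ΔSC libraries. It was higher in all 3, beside T cell receptor subunits that stayed near 0. Control replicates 1 and 2 were at or below the floor of 3 counts. Cd4 had enough counts to be tested only through the Rnf40ΔSC libraries, where it was high. It had no value with at least 10 counts in every library. Its log2 change of 2.24 (SE 0.51, edgeR adjusted p = 0.000784) is thus uncertain in size, with alternatives from 1.45 to 2.97. No conclusion is drawn from its p. The summed T and natural killer cell level was 1.65, 2.83 and 2.68 CPM in control and 6.44, 11.9 and 12.8 CPM in Rnf40ΔSC libraries. Cd4 made up most of it in the Rnf40ΔSC libraries, while in control replicate 1 Cd4 was at 0 and Cd3g made up the sum.

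Markers of most other cell types of the nerve were detected. The calls in each list below stand beside 16.2% lower and 15.4% higher over all genes tested. All 4 Schwann cell genes reported passed, 3 lower (Sox10, S100b and Erbb3) and Egr2 higher, with Sox10 the most abundant, and the summed level fell from 1389 ± 79.4 CPM to 974 ± 40.9 CPM (SD, n = 3). Of 7 endothelial genes 4 were lower (Pecam1, Cdh5, Kdr and Cldn5), with Cdh5 the most abundant, and the sum was 704, 644 and 720 CPM in control and 454, 466 and 552 CPM in Rnf40ΔSC libraries. Of 5 mast cell genes 3 were lower (Cpa3, Mcpt4 and Tpsb2), and the sum, led by Cpa3, was 66.7, 78.0 and 95.1 CPM against 56.7, 44.4 and 44.3 CPM. Mcpt4 had 8, 16 and 24 counts in control against 13, 3 and 10 in Rnf40ΔSC libraries. It had enough counts to be tested through the control libraries, where it was high. No conclusion is drawn from the call of Mcpt4, which had no value with at least 10 counts in every library. Of 5 fibroblast genes 4 were lower (Pdgfra, Col1a1, Col1a2 and Dcn), led by Col1a2, with sums of 28800, 28030 and 30610 CPM against 21530, 20240 and 20940 CPM. All 3 genes tested of the perineurial list were lower (Slc2a1, Cldn1 and Itgb4), led by Itgb4, with sums of 836, 971 and 957 CPM against 531, 444 and 496 CPM. Itgb4 had the largest part in that fall, with a mean of 465 CPM in control and 144 CPM in Rnf40ΔSC nerve. The means were 148 and 92.7 CPM for Slc2a1 and 306 and 253 CPM for Cldn1. Whole nerve does not show which cells these transcripts came from. The fall of this sum, led by Itgb4, is thus not placed in perineurial cells. Several of these calls depended on the processing. With total counts Pecam1, Cdh5, Kdr, Mcpt4, Pdgfra, Col1a1, Dcn and Cldn1 lost their calls, and the median of the fibroblast list moved from -0.27 to -0.003. With DESeq2 Mcpt4, Tpsb2, Pdgfra and Cldn1 lost theirs. With Rnf40ΔSC replicate 3 alone Mcpt4, Tpsb2, Kdr, Cldn5 and Pdgfra lost theirs, and without that library Cldn1 did (edgeR adjusted p = 0.0712). Left-out libraries ended other calls, with the edgeR adjusted p in brackets. Without control replicate 3 they were those of Egr2 (0.0873), Mcpt4 (0.164), Tpsb2 (0.125), Pdgfra (0.107) and Cldn1 (0.155). Without control replicate 2 they were those of Mcpt4 (0.0744), Pdgfra (0.138) and Cldn1 (0.235), and without Rnf40ΔSC replicate 2 those of Mcpt4 (0.118), Pdgfra (0.0972) and Cldn1 (0.117). Without Rnf40ΔSC replicate 1 it was that of Pdgfra (0.0826). Over all alternatives the adjusted p ran from 7.93e-06 to 0.0873 for Egr2, 0.0236 to 0.168 for Mcpt4, 0.00651 to 0.125 for Tpsb2, 0.0163 to 0.986 for Pdgfra and 0.00629 to 0.939 for Cldn1. Of 5 red blood cell genes the 4 globin genes were at 0 in every library, and Alas2 did not pass with all 6 libraries but did without Rnf40ΔSC replicate 3 (edgeR adjusted p = 0.00273, over a range from 0.00273 to 0.913).

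**Figure D4:**
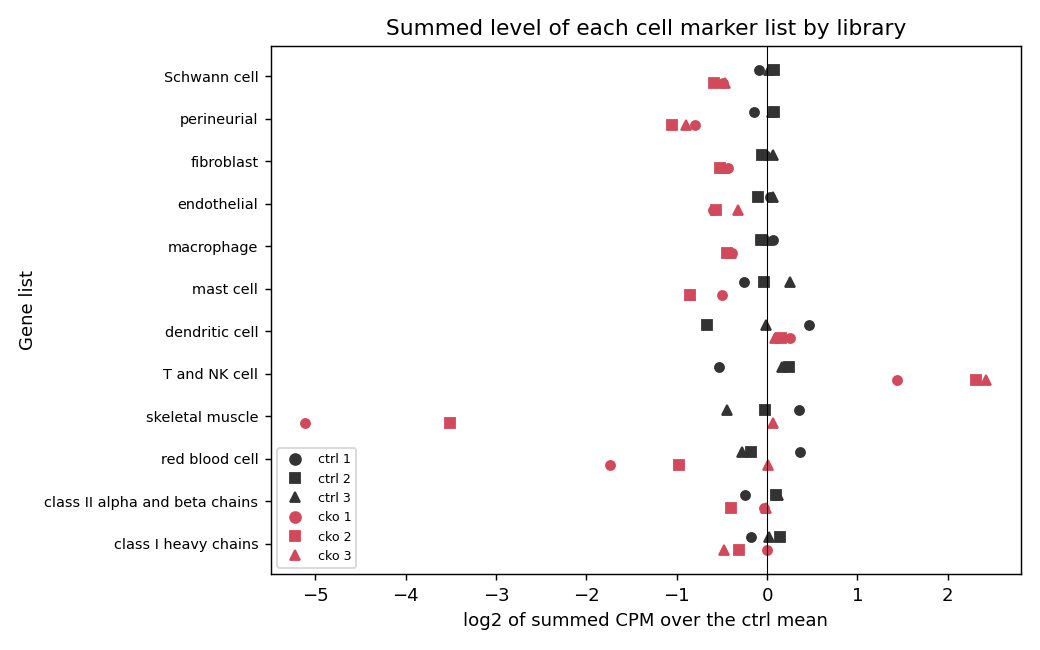
Summed CPM of each marker list in each library, as log2 of its ratio to the control mean, with the class II alpha and beta chains and the class I heavy chains below. Symbols are libraries (n = 3 pools per genotype). The sums of the macrophage, endothelial, fibroblast, perineurial, mast cell and Schwann cell lists are lower in all Rnf40ΔSC libraries. That of the T and natural killer cell list is higher, and the chain sums of both MHC classes overlap. TMM factors were 0.893 to 0.928 in control and 1.07 to 1.11 in Rnf40ΔSC libraries, which raises control sums beside the others. The sums were not taken with total counts.

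The genes most like Cd74 over the 6 libraries, by the root mean square difference of log2 CPM centred on the control mean, were Mturn (0.063), Kazn (0.0709), 4931406C07Rik (0.0733), Far1 (0.0783) and Sccpdh (0.0805), out of 9335 genes compared. All 5 fell by 0.88 to 0.94 on the log2 scale. Genes chosen by likeness to Cd74 or B2m must change about as much as that gene, so these changes are a description only. Those most like B2m were Mettl9 (0.0377), Cox5a (0.0433), Clic4 (0.0447), Ufd1l (0.045) and Anapc13 (0.0455). Of these 5 only Clic4 passed the edgeR test, and it kept the call under 7 of 14 alternatives, with Rnf40ΔSC replicate 3 alone not among them. It lost the call without any of control replicates 1 to 3 (edgeR adjusted p of 0.0622, 0.0572 and 0.131) or without Rnf40ΔSC replicate 2 (edgeR adjusted p = 0.179), over a range from 2.8e-05 to 0.362. Mettl9 passed without Rnf40ΔSC replicate 3 (edgeR adjusted p = 0.0414, with a range over all alternatives from 0.000641 to 0.71), and Mettl9, Cox5a, Ufd1l and Anapc13 passed with total counts. None of the 10 genes is a member or stands in the lists of antigen presentation genes.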

How the data were processed

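RNA of sciatic nerve pools was sequenced on an Illumina HiSeq instrument. The labels name a NEB Next Ultra library kit and the methods a NEXTFLEX directional kit, so strandedness is unsure. The authors aligned reads to mm9 with TopHat, kept uniquely mapped reads and deposited raw counts per gene from HTSeq, and the submitters' processing notes also name Bowtie2 2.1.0, DESeq2 and the build mm10. Of the entries, 0 named no gene.

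The raw counts were tested with edgeR 4.0.16 in R 4.3.3 (TMM scaling, filterByExpr, robust quasi-likelihood fit on genotype, Benjamini-Hochberg adjustment over all genes tested). The fit was tested on simulated data. DESeq2 1.42.0, other scalings and filters, a replicate block and each library left out were the alternatives, with Rnf40ΔSC replicate 3 alone against the controls added after the data were seen, which assumes that the lone library varies like the controls. Ratios within a library were tested with scipy 1.17.1. Exon lengths and mm9 coordinates came from GENCODE vM1, and promoters from RefSeq (GRCm38.p6), whose coordinates were not mixed with mm9.

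The members and lists were chosen with earlier results of these data known. Named genes were the members, Rnf40, H2-Ea, pathway genes that passed, the most abundant and the passing genes of each marker list, and the 5 genes most like Cd74 and like B2m (base mean of at least 20). Other genes were chosen after their values were seen. Some genes of the lists are not reported here and enter no list count or sum. The p-values measure the spread between pools.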

Additional observations from a re-analysis of the deposited data

How the results depend on the processing

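Cd74 stayed lower and past the threshold under all 14 alternatives, from -1.01 to -0.62 on the log2 scale, and from -0.97 to -0.81 with each library left out. B2m stayed higher under all 14, but 4 lost the call: its log2 change was 0.16 to 0.34 with each library left out, where the call was lost without control replicate 2, control replicate 3 or Rnf40ΔSC replicate 2, and 0.11 with Rnf40ΔSC replicate 3 alone. So members passing as higher numbered 0 to 1 with each library left out, and 0 with that lone library or with the limits of the study. Members passing as lower numbered 1 to 2 with each library left out and 2 with the lone library, where H2-K1 joined Cd74.

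Genes passing numbered 880 lower and 3766 higher with total counts, 1178 and 1110 with DESeq2 without a fold-change prior, and 1184 and 1120 with it. With the limits of the study they numbered 574 and 424, and with Rnf40ΔSC replicate 3 alone 1263 were lower and 1119 higher. With each library left out, 1439 to 1992 were lower and 1293 to 1915 were higher.

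The difference in the log2 ratio of B2m to Cd74 was 1.09 to 1.16 with each library left out and 0.79 for summed class I over summed class II chains, but -0.34 for H2-K1 to H2-Aa, which reversed it. The cause was not tested.

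Signs turned for H2-Ab1 (0.10), H2-D1 (0.13), Tap1 (0.0795), Ctsl (0.00705), Ctsb (0.046), Dcn (0.00489), Rfx5 (0.0166) and Nfyb (0.234) with total counts, which moved the median of all genes to 0.27, and for H2-Ab1 (0.0497), Acta1 (0.248) and Alas2 (0.0654) with Rnf40ΔSC replicate 3 alone. With each library left out H2-Aa ran from -0.0164 to 0.248, H2-Ab1 from -0.306 to 0.0058, Tap1 from -0.44 to 0.0499, Zbtb46 from -0.0616 to 0.688, Psmb7 from -0.019 to 0.448 and Nfyb from -0.189 to 0.122. Over 68 genes followed through these settings, 802 of 946 values kept direction and side of the threshold, 106 lost the call, 18 gained it and 20 reversed. Filters left too few counts for some of these genes.

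The replicate numbers did not pair the libraries: same-numbered deviations correlated at -0.095, -0.015 and -0.062. With the replicate block, 1837 genes were lower and 1727 higher, the log2 change of Cd74 was -0.88 and that of B2m 0.25, the B2m to Cd74 ratio differed by 1.13, and of the genes followed only Ctsb lost its call. Depth limits H2-Aa, H2-Ab1, H2-Eb1, Tap1 and Tap2, with 10 to 39 counts in each library.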
